A study of Caenorhabditis elegans with 14 samples.

Results

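The genes described here are uncharacterized *C. elegans* genes with extreme differences in RNA level between worms on *E. faecalis* and worms on *E. coli*. They were chosen by symbol: Y54G2A.57, F56A4.5, F57G4.1, F54D8.10, C30G12.2 and F54E4.2. The 6 symbols matched 7 rows of the 21982 genes counted, because the symbol F56A4.5 is given to 2 gene identifiers. The second of them (WBGene00021567) is called Y45G12C.4 here, after its annotated transcript. The difference between bacteria was what chose these genes, so their values on the 2 bacteria are given as a description, with no *P* for any of them. Where calls or ranks from that comparison are given for them, nothing is read from these. The comparison of *skpo-1* with N2 was not the one that chose the genes, and it was tested. It uses the same libraries, so it is not free of the choice for a gene chosen by an extreme level in a group.

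RNA was sequenced from whole day 1 adult worms of *skpo-1* and N2. Animals had been placed at the L4 stage on *E. faecalis* OG1RF or *E. coli* OP50 and kept at 25 °C for 16 h. On *E. faecalis* there were 4 libraries of *skpo-1* and 3 of N2, and on *E. coli* there were 3 of *skpo-1* and 4 of N2. The *skpo-1* worms, labelled skpo-1(0), were of strain GF89 with the deletion allele *ok1640*. Only 1 mutant strain was used, so the allele and any other difference between the strains cannot be told apart. *E. faecalis* was seeded on brain heart infusion agar with gentamycin, while for *E. coli* only the nematode growth agar used in maintenance is described, so bacterium, medium and antibiotic cannot be told apart either. The libraries were described as biological replicates.

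*C. elegans* feeds on bacteria, and *E. faecalis* colonizes the lumen of its intestine and kills the worm over days. The worm responds with changes in transcription of secreted antimicrobial proteins, detoxification enzymes and metabolic genes, many of them in the intestine. SKPO-1 is a heme peroxidase expressed in the epidermis, and worms without it are more susceptible to *E. faecalis*. Many genes that respond to bacteria in *C. elegans* carry only the name of the sequenced clone they lie on, as all genes chosen here do. Near-identical gene copies share sequence, and a read that fits more than 1 copy is divided between them by an estimate.

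Levels are given as CPM, read counts scaled to a common library size with a normalization factor. The libraries held 15174830 to 36682565 counts. The *skpo-1* gene itself had 1.62 to 2.26 CPM in *skpo-1* on *E. faecalis* and 112 to 199 CPM in N2 on *E. faecalis*. On *E. coli* it had 2.35 to 2.66 CPM in *skpo-1* and 283 to 314 CPM in N2, so every library matched the genotype in its label. The bacterium in the label was not checked by this. Marker lists of intestine, epidermis, body muscle, pharynx, neurons, sperm and oocytes were all detected. In the whole-worm RNA, fewer cells of a type and less RNA per cell cannot be told apart. Library 2 of N2 on *E. coli* and library 4 of *skpo-1* on *E. faecalis* stood apart, with summed body muscle markers of 899 and 653 CPM against at least 1873 CPM in each other library. Both were kept, and the tests were repeated without them.

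All 7 genes are annotated as protein-coding with 1 transcript each, and coordinates are those of WBcel235. Y54G2A.57 lies on chromosome IV at 2969940 to 2973466 on the plus strand and has 10 exons. F56A4.5 (WBGene00018913) and Y45G12C.4 lie on chromosome V at 2437960 to 2439871 and 2546200 to 2548150, both on the plus strand with 5 exons. F57G4.1 is also on chromosome V, at 17623530 to 17624559 (plus strand, 3 exons). F54D8.10 is a single exon of 204 nt on chromosome III, at 5094806 to 5095009 on the plus strand. C30G12.2 lies on chromosome II at 7290426 to 7291719 (plus strand, 2 exons), on the same chromosome as *skpo-1* and 1.11 Mb from it. F54E4.2 lies on chromosome X at 14625452 to 14628916 on the minus strand and has 6 exons. None of these genes has a role that is given in the annotation used.

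On *E. faecalis*, 4 of the 7 genes were higher and 3 were lower than on *E. coli* in N2, and in that genotype the libraries of the 2 bacteria did not overlap for any of them. In *skpo-1*, 3 were higher and 3 lower without overlap. Over all 15685 tested genes, 22.6% were higher and 14.9% lower without overlap in N2, and 25.6% higher and 20.1% lower in *skpo-1*. Genes are termed called where the adjusted *P* was under 0.05 and the log2 fold change was 1 or more in size. By this rule all 7 were called in N2, where 23.3% of tested genes were called (19.2% higher and 4.1% lower). In *skpo-1*, 1 gene was called higher and 3 lower, where 11.8% of tested genes were called (10% higher and 1.76% lower). Nothing is read from these counts or from the ranks that follow, since the same comparison chose the genes. Among 2570 genes called higher in N2 without overlap of the groups, Y54G2A.57 was first by fitted log2 fold change (9.69) and Y45G12C.4 the third (9.59), with the C-type lectin gene *clec-60* (9.63) between them and the flavin monooxygenase gene *fmo-2* (8.77) just after. F56A4.5 was at place 13 with 6.47 and F57G4.1 at place 102 with 4.00. Among 528 genes called lower in the same way, the nuclear receptor gene *nhr-74* (-9.24) was first, F54D8.10 (-7.42) the second, *grd-4* (-5.41) the third and *oac-32* (-5.27) just after them. F54E4.2 was at place 6 with -5.14 and C30G12.2 at place 23 with -3.92. In *skpo-1*, C30G12.2 (-5.82) and F54E4.2 (-5.50) were first and second of 272 genes called lower, with *nhr-74* (-5.49) and *fat-7* (-5.46) just after. F57G4.1 (8.62) was the third of 1547 genes called higher in *skpo-1*, behind *clec-45* (12.78) and *cyp-35A1* (9.39) and ahead of *chil-9* (7.74). Fitted values of genes with a group at or near 0 depend on the prior count, and so does their order. Those with a group at 0 are used here only for the order under the default prior count. With a prior count of 2 in N2, F54D8.10 was at -3.54, above F54E4.2 (-4.02) and C30G12.2 (-3.83). Y54G2A.57 was then at 5.72 and Y45G12C.4 at 5.62.

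**Figure D1:**
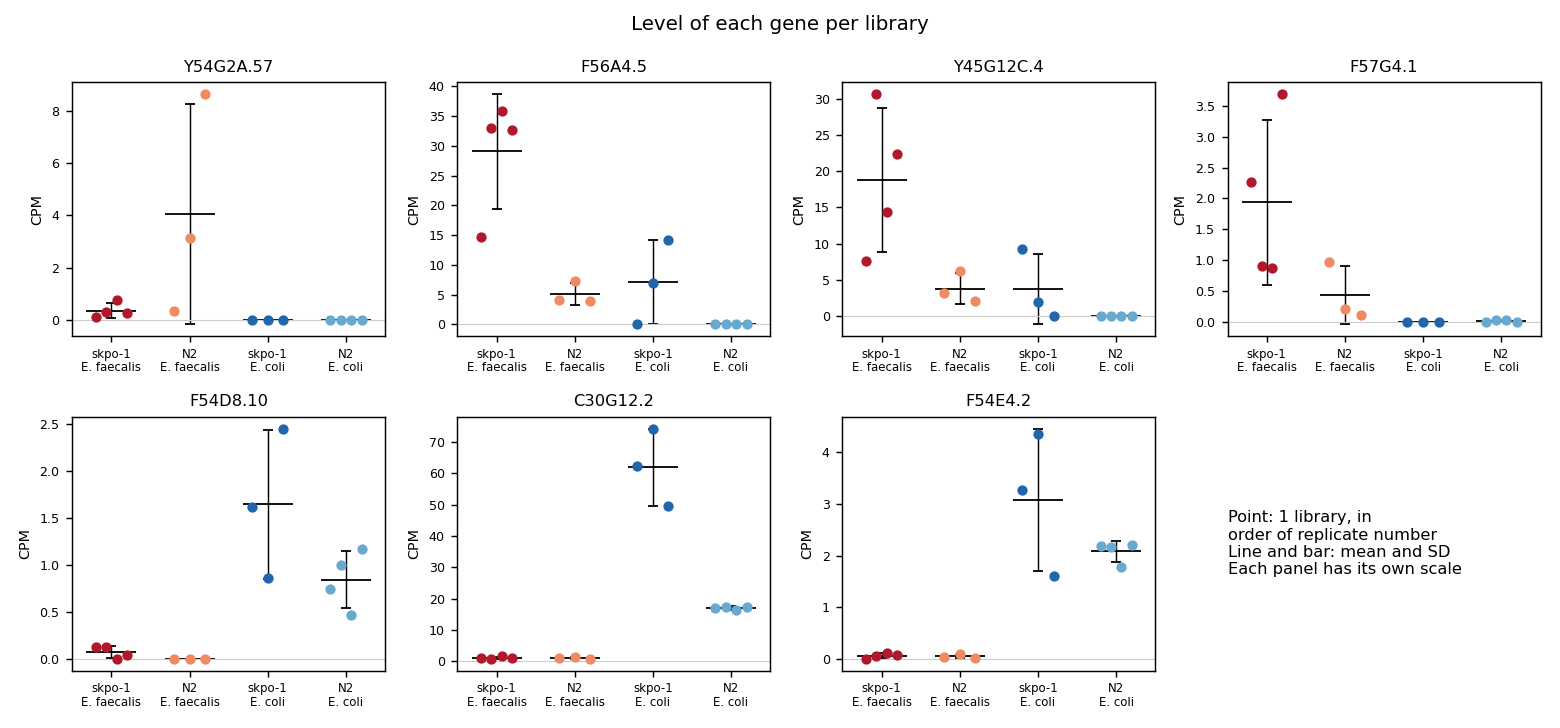
CPM of each gene (y axis, own scale per panel) in the 14 libraries, by genotype and bacterium (x axis). Points are libraries in order of replicate number, and lines with bars are group means and SD. Y54G2A.57, F56A4.5, Y45G12C.4 and F57G4.1 were at or near 0 in N2 on *E. coli*, while on *E. faecalis* F54D8.10 and F54E4.2 had at most 0.133 CPM and C30G12.2 at most 1.63 CPM.

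Y54G2A.57 was detected on *E. faecalis* alone. It had 0.0888, 0.292, 0.753 and 0.275 CPM in *skpo-1* on *E. faecalis* and 0.353, 3.14 and 8.66 CPM in N2 on *E. faecalis*, against no count in any *E. coli* library of *skpo-1* (n = 3) or N2 (n = 4). The values of N2 on *E. faecalis* thus spread over more than an order of magnitude, and the lowest of them lay within the range of *skpo-1*. Against a floor of 3 counts over a group, the level on *E. faecalis* was at least 147.5-fold higher than on *E. coli* in N2 and at least 7.60-fold higher in *skpo-1*. Floors and count intervals cover counting error only. Between the genotypes on *E. faecalis*, Y54G2A.57 averaged 0.352 ± 0.283 CPM in *skpo-1* (SD, n = 4) and 4.05 ± 4.23 CPM in N2 (SD, n = 3). The fitted log2 fold change was -3.59 (SE 0.918), and it did not pass edgeR's quasi-likelihood test after Benjamini-Hochberg adjustment (adjusted *P* = 0.352). Without N2 library 1 on *E. faecalis*, the library with the lowest N2 value, the same edgeR test gave -4.13 (adjusted *P* = 0.0287). Without N2 library 3, the highest, it gave -2.39 (adjusted *P* = 0.999). On *E. coli* both genotypes were at 0 and no fold was formed.

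The level of Y54G2A.57 in N2 on *E. faecalis* followed the order of the summed sperm markers in these libraries (32.8, 42.4 and 95.4 CPM). The epidermis sums (580, 388.5 and 301 CPM) and body muscle sums (2604, 2274 and 2008 CPM) ran in the reverse order there. The other lists followed neither order. In *skpo-1* on *E. faecalis*, library 3 had the highest Y54G2A.57 (0.753 CPM) and the lowest sperm sum (17.5 CPM). The sperm list, of major sperm protein and other sperm genes, had 17.5 to 43.2 CPM in *skpo-1* on *E. faecalis*, 22.8 to 48.4 CPM in *skpo-1* on *E. coli* and 13.9 to 25.3 CPM in N2 on *E. coli*. Y54G2A.57 had no count in the *skpo-1* libraries on *E. coli*, and the part of sperm RNA in its level was not tested. Y54G2A.57 lies inside *lad-2*, which encodes an L1CAM-type adhesion protein of neurons and is read from the other strand. Exons of the 2 genes overlap by 73 nt, and reads of the overlap cannot be told apart without strand, which the methods do not state. In *skpo-1*, *lad-2* averaged 5.26 ± 1.05 CPM on *E. faecalis* (SD, n = 4) and 3.41 ± 0.513 CPM on *E. coli* (SD, n = 3), a difference that was not called (adjusted *P* = 0.0982, edgeR). In N2 it averaged 7.01 ± 1.87 CPM on *E. faecalis* (SD, n = 3) and 2.96 ± 0.604 CPM on *E. coli* (SD, n = 4), with a log2 fold change of 1.25 (SE 0.258, adjusted *P* = 0.0028, edgeR). *lad-2* was present in every library on *E. coli*, while Y54G2A.57 had no count in any of them. The octopamine receptor gene *ser-6*, 5538 nt before Y54G2A.57, was not called in either response.

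F56A4.5 and Y45G12C.4 lie 108240 nt apart in a repeated stretch of chromosome V. In both places the annotation gives the same symbols in the same order, Y45G12C.6, *srt-1* and F56A4.5, followed by a pseudogene on the other strand. The transcripts of F56A4.5 and Y45G12C.4 are 1257 and 1296 nt long. The authors' quantification divides reads that fit both copies, so the level of each copy is uncertain. How alike their sequences are was not analysed here, and the sum of both was examined as well. This sum was added after the values had been seen.

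F56A4.5 had 14.7, 33.1, 35.8 and 32.7 CPM in *skpo-1* on *E. faecalis* and 4.02, 7.19 and 3.96 CPM in N2 on *E. faecalis*. On *E. coli* it had 0, 7.01 and 14.1 CPM in *skpo-1*, while N2 had 1, 3, 0 and 1 counts, at most 0.0785 CPM. Y45G12C.4 had 7.59, 30.7, 14.4 and 22.3 CPM in *skpo-1* on *E. faecalis* and 3.13, 6.19 and 2.06 CPM in N2 on *E. faecalis*. On *E. coli* it had 9.20, 1.92 and 0 CPM in *skpo-1* and no count in N2. The *skpo-1* libraries on *E. coli* thus differed in which copy held the counts. The share of the pair's counts on F56A4.5 was 0% (95% Wilson interval 0 to 1.28%), 78.5% (72.7 to 83.3%) and 100% (98.1 to 100%) in these 3 libraries. On *E. faecalis* the share was 51.9 to 71.2% in *skpo-1* and 53.8 to 65.8% in N2.

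Summed, the copies were far more even across *skpo-1* worms on *E. coli*. The sum was 22.3, 63.8, 50.2 and 55.1 CPM in *skpo-1* on *E. faecalis* and 7.15, 13.4 and 6.03 CPM in N2 on *E. faecalis*. The *E. coli* libraries had 9.20, 8.93 and 14.1 CPM in *skpo-1* and 0.0681, 0.0785, 0 and 0.0615 CPM in N2. *skpo-1* on *E. faecalis* lay above every other group and N2 on *E. coli* below every other group. N2 on *E. faecalis* and *skpo-1* on *E. coli*, with means of 8.85 ± 3.96 and 10.8 ± 2.92 CPM (SD, n = 3 each), overlapped. On *E. faecalis* against *E. coli*, the summed level was 4.47-fold higher in *skpo-1* (log2 fold change 2.16, SE 0.379). In N2 the ratio of the pooled CPM was 169, with a counting interval of 72.3 to 523, since N2 on *E. coli* had only 5 counts. Whether the genotypes' responses differ was not tested.

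**Figure D2:**
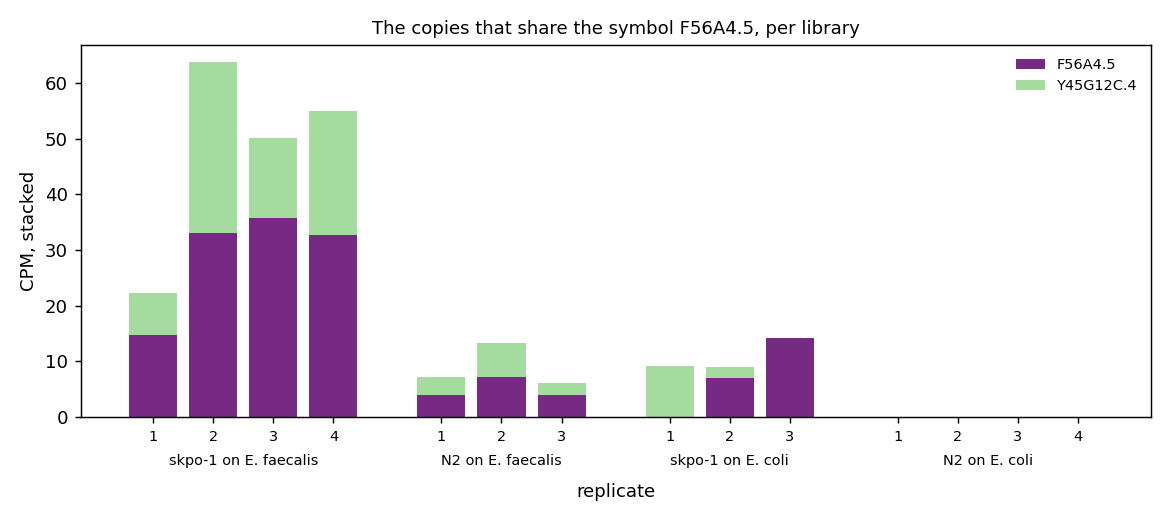
CPM (y axis, stacked) of F56A4.5 and Y45G12C.4 in each library (x axis, by replicate number within genotype and bacterium). The stacked bars reach 22.3 to 63.8 CPM in *skpo-1* on *E. faecalis*, 6.03 to 13.4 CPM in N2 on *E. faecalis*, from 8.93 to 14.1 CPM in *skpo-1* on *E. coli* and at most 0.0785 CPM in N2 on *E. coli*, and in *skpo-1* on *E. coli* libraries 1 and 3 show 1 copy each.

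The summed copies were higher in *skpo-1* than in N2 on both bacteria. On *E. coli* the sum differed by 7.55 on the log2 scale (SE 0.570, adjusted *P* = 4.06e-06, edgeR quasi-likelihood test), and the ratio of pooled CPM was 192 with a counting interval of 81.7 to 592. All 3 *skpo-1* libraries on *E. coli* lay above all 4 of N2. On *E. faecalis* the sum was 5.40-fold higher, at 47.8 ± 17.9 CPM in *skpo-1* (SD, n = 4) and 8.85 ± 3.96 CPM in N2 (SD, n = 3), with a log2 fold change of 2.43 (SE 0.383, adjusted *P* = 0.0167, edgeR). The call on *E. coli* held in 21 of 21 alternatives. The N2 libraries on *E. coli* also entered the choice of these genes, and the sum was formed after the values had been seen. The call on *E. faecalis* was lost in 4 of 21, namely when only the compared groups were fitted (adjusted *P* = 0.113) and without *skpo-1* library 2 (0.0694), *skpo-1* library 3 (0.0521) or N2 library 3 (0.162) on *E. faecalis*, all by edgeR.

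Taken as separate genes, both copies were called higher in *skpo-1* on *E. coli*, and the groups overlapped at 0. F56A4.5 had a log2 fold change of 6.92 (SE 1.29, adjusted *P* = 0.0231, edgeR). Y45G12C.4, with no count in N2, was at least 151.7-fold higher against the floor (adjusted *P* = 0.0477, edgeR). Between the genotypes on *E. faecalis* neither copy was called, although every *skpo-1* library lay above every N2 library for both. Of all tested genes, 5.21% were higher in *skpo-1* on *E. faecalis* without overlap. The log2 fold changes there were 2.52 for F56A4.5 (SE 0.891, adjusted *P* = 0.553) and 2.31 for Y45G12C.4 (SE 0.931, adjusted *P* = 0.639, edgeR). Without *skpo-1* library 1 on *E. coli*, in which all counts of the pair were on Y45G12C.4, F56A4.5 was called on *E. faecalis* as well (adjusted *P* = 0.0239, edgeR). The chemoreceptor gene *srt-1*, 175 nt before F56A4.5, had 1 count in each of 2 libraries of *skpo-1* on *E. faecalis* and none in the other groups. The *srt-1* and Y45G12C.6 identifiers beside Y45G12C.4 were not among the genes counted.

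F57G4.1 had 2.27, 0.908, 0.879 and 3.69 CPM in *skpo-1* on *E. faecalis* and 0.971, 0.213 and 0.109 CPM in N2 on *E. faecalis*. On *E. coli* it had no count in *skpo-1* and 2 counts over the 4 libraries of N2. The level on *E. faecalis* was at least 47.4-fold higher than on *E. coli* in *skpo-1*. In N2 the ratio was 16.98 with a counting interval of 4.34 to 146, from 33 and 2 counts. The fitted log2 fold change of 4.00 in N2 was 2.66 without N2 library 1 on *E. faecalis*, and 6 of the 7 genes were then called in N2. On *E. faecalis*, the highest N2 library lay within the range of *skpo-1*, and the genotype difference of 2.25 on the log2 scale (SE 0.728) was not called (adjusted *P* = 0.515, edgeR). Without that library, N2 library 1, the edgeR test gave 3.58 (adjusted *P* = 0.0499), against 1.72 without *skpo-1* library 4 (adjusted *P* = 0.911) and 1.76 without N2 library 3 on *E. faecalis* (adjusted *P* = 0.999). That library had the highest F57G4.1 and the lowest Y54G2A.57 of the 3 N2 libraries on *E. faecalis*.

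On the same strand, Y6G8.8 ends 779 nt before F57G4.1 and had 2 counts in N2 library 3 on *E. faecalis* and none elsewhere. F57G4.11, also on that strand, starts 646 nt after F57G4.1 and was higher on *E. faecalis* too. Of all tested genes, 10% were called higher in *skpo-1* and 19.2% in N2. Between genotypes on *E. faecalis* F57G4.11 was not called (log2 fold change 1.58, SE 0.543, adjusted *P* = 0.539, edgeR). F57G4.11 averaged 1.98 ± 1.07 CPM in *skpo-1* on *E. faecalis* (SD, n = 4) and 0.107 ± 0.0400 CPM in *skpo-1* on *E. coli* (SD, n = 3), a log2 fold change of 4.24 (SE 0.704, adjusted *P* = 0.0014, edgeR). In N2 it averaged 0.659 ± 0.0773 CPM on *E. faecalis* (SD, n = 3) and 0.0262 ± 0.0523 CPM on *E. coli* (SD, n = 4), a log2 fold change of 3.90 (SE 0.757, adjusted *P* = 0.00204, edgeR). *skpo-1* library 4 on *E. faecalis*, which stood apart in body muscle markers, had the highest level of both genes, 3.69 CPM for F57G4.1 and 3.34 CPM for F57G4.11. Without it, F57G4.1 still had 0.879 to 2.27 CPM in *skpo-1* on *E. faecalis*.

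**Figure D3:**
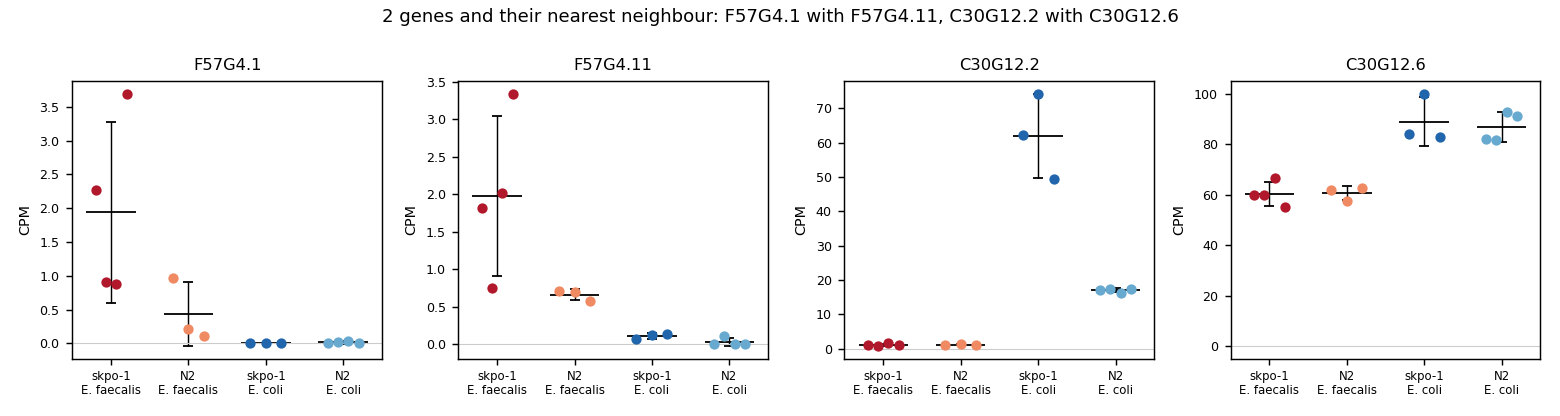
CPM (y axis, own scale per panel) of F57G4.1 and its neighbour F57G4.11 and of C30G12.2 and its neighbour C30G12.6, by genotype and bacterium (x axis). Points are libraries, and lines with bars are group means and SD. F57G4.11 was higher on *E. faecalis* like F57G4.1, while C30G12.6 had 54.9 to 66.7 CPM on *E. faecalis*, where C30G12.2 had 0.778 to 1.63 CPM.

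C30G12.2 was the most abundant of the genes lower on *E. faecalis*. It had 1.07, 0.778, 1.63 and 0.983 CPM in *skpo-1* on *E. faecalis* and 1.15, 1.31 and 0.923 CPM in N2 on *E. faecalis*, against 62.2, 74.1 and 49.5 CPM in *skpo-1* on *E. coli* and 17.1, 17.3, 16.3 and 17.5 CPM in N2 on *E. coli*. The genotypes thus overlapped on *E. faecalis* and were clearly apart on *E. coli*. The level on *E. faecalis* was 56.7-fold lower than on *E. coli* in *skpo-1* (log2 fold change -5.82, SE 0.250) and 15.1-fold lower in N2 (-3.92, SE 0.255). On *E. coli*, C30G12.2 averaged 61.9 ± 12.3 CPM in *skpo-1* (SD, n = 3) and 17.1 ± 0.516 CPM in N2 (SD, n = 4). It was 3.63-fold higher in *skpo-1*, with a log2 fold change of 1.86 (SE 0.209, adjusted *P* = 0.000546, edgeR quasi-likelihood test). The call held in 21 of 21 alternatives, with log2 fold changes of 1.69 to 2.001 and adjusted *P* values of at most 0.0096. On *E. faecalis* the log2 fold change between genotypes was -0.05 (SE 0.248, adjusted *P* = 0.975, edgeR). Whether the genotype effect differs between bacteria was not tested.

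C30G12.6 is read from the other strand and ends on the side of C30G12.2, 306 nt away. It did not share the genotype difference on *E. coli*, where its log2 fold change was 0.03 (adjusted *P* = 0.949, edgeR). On *E. faecalis* against *E. coli* it changed by -0.56 in *skpo-1* (adjusted *P* = 0.00696) and -0.52 in N2 (adjusted *P* = 0.00582, edgeR), below the fold threshold. The summed epidermis markers were 301 to 580 CPM on *E. faecalis* over both genotypes and 759 to 1603 CPM on *E. coli*. Gene by gene, the median log2 fold change of the 7 epidermis markers was 0.53 in *skpo-1* (1 called higher, 1 lower) and 1.19 in N2 (2 called higher, 1 lower). The body muscle list had medians of -0.66 in *skpo-1* and -0.40 in N2, and the oocyte list -0.59 and -0.44, with no gene called in either list. The part of tissue composition in the level of C30G12.2 was not tested.

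F54E4.2 was lower on *E. faecalis* in both genotypes. It had 0, 0.0648, 0.126 and 0.0786 CPM in *skpo-1* on *E. faecalis* and 0.0441, 0.0914 and 0.0271 CPM in N2 on *E. faecalis*, against 3.26, 4.35 and 1.61 CPM in *skpo-1* on *E. coli* and 2.18, 2.17, 1.78 and 2.21 CPM in N2 on *E. coli*. The libraries on *E. faecalis* held 6 counts in *skpo-1* and 5 in N2 in all. The level on *E. faecalis* was 45.2-fold lower than on *E. coli* in *skpo-1* (log2 fold change -5.50, SE 0.533) and 35.3-fold lower in N2 (-5.14, SE 0.578). With so few counts these values depend on the prior count, and with a prior count of 2 they were -4.47 in *skpo-1* and -4.02 in N2. Without N2 library 2 on *E. faecalis* the N2 value was -5.74. Between genotypes the log2 fold change was 0.57 on *E. coli* (SE 0.388, adjusted *P* = 0.658) and 0.22 on *E. faecalis* (SE 0.777, adjusted *P* = 0.964, edgeR), and the groups overlapped on both bacteria. The nearest genes, *rbc-1* at 588 nt on the other strand and F54E4.3 at 3152 nt, were not called in either response. F54E4.3 was higher on *E. faecalis* by 0.87 on the log2 scale in *skpo-1* (adjusted *P* = 0.047) and 0.75 in N2 (adjusted *P* = 0.0466, edgeR), below the fold threshold.

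F54D8.10, the 204-nt gene, had 0.133, 0.130, 0 and 0.0393 CPM in *skpo-1* on *E. faecalis* and no count in N2 on *E. faecalis*. On *E. coli* it had 1.62, 0.861 and 2.45 CPM in *skpo-1* and 0.749, 0.994, 0.465 and 1.17 CPM in N2. Every library on *E. coli* thus lay above every library on *E. faecalis*. In N2 the level on *E. faecalis* was at least 25.9-fold lower than on *E. coli*, and in *skpo-1* it was 18.6-fold lower (log2 fold change -4.22, SE 0.621, and -3.40 with a prior count of 2). The genotypes differed by 0.94 on the log2 scale on *E. coli* (SE 0.498), which was not called (adjusted *P* = 0.575, edgeR). On *E. faecalis* *skpo-1* held 8 counts against none in N2, at least 2.60-fold higher against the floor, which was not called (adjusted *P* = 0.506, edgeR). The nearest genes, *cah-1* and F54D8.6, lie 9176 and 7975 nt away and were not called in either response.

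Per kilobase of transcript, C30G12.2 had the highest level on *E. coli*, with 74.5 CPM per kb in *skpo-1* and 20.5 CPM per kb in N2. F54D8.10 followed among the genes lower on *E. faecalis* with 8.05 CPM per kb in *skpo-1* on *E. coli* and 4.14 in N2 on *E. coli*, above F54E4.2 with 2.48 and 1.69 CPM per kb. On *E. faecalis*, F56A4.5 was highest with 23.1 CPM per kb in *skpo-1* and 4.02 in N2, and Y45G12C.4 had 14.5 and 2.93 CPM per kb when the 2 copies were counted apart. In N2 on *E. faecalis*, Y54G2A.57 came after F56A4.5 with 3.08 CPM per kb, a mean within the spread of Y45G12C.4, and F57G4.1 had 0.459 CPM per kb. In *skpo-1* on *E. faecalis*, the order of their means was reversed, with 0.268 CPM per kb for Y54G2A.57 and 2.06 CPM per kb for F57G4.1. N2 library 1 on *E. faecalis* had the order of *skpo-1*, with 0.269 CPM per kb for Y54G2A.57 and 1.03 for F57G4.1. The genotype difference on *E. faecalis* was not called for either gene.

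Over all genes, *skpo-1* against N2 called 3 of the 7 on *E. coli*, all higher in *skpo-1*, where 0.644% of tested genes were called and 0.567% were called higher. Without overlap of the groups there was 1, C30G12.2, where 5.18% of tested genes were higher in that way. Of the 3 called, 2 are the copies. How the division of reads between them bears on these calls was not tested. The call of Y45G12C.4 was lost in 15 of 20 alternatives (adjusted *P* up to 0.149), among them those that left out any 1 library of either genotype on *E. faecalis*, any of N2 on *E. coli*, or *skpo-1* library 1 or 2 on *E. coli*. The call of F56A4.5 was lost in 8 of 20 (adjusted *P* up to 0.135, edgeR), among them those without any 1 library of N2 on *E. coli* or without *skpo-1* library 2 or 3 on *E. coli*. The 20 leave out the fit of only the compared groups, in which neither copy passed the filter and so neither was called. Without both libraries that stood apart, only C30G12.2 remained called of the 7. The N2 libraries on *E. coli* entered both this comparison and the choice of the genes, so a gene chosen for a low level there is not free of that choice here. On *E. faecalis*, 0 of 7 were called by edgeR's quasi-likelihood test, where 0.108% of tested genes were called. DESeq2's Wald test also called 0 of the 7, where it called 106 genes in all.

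**Figure D4:**
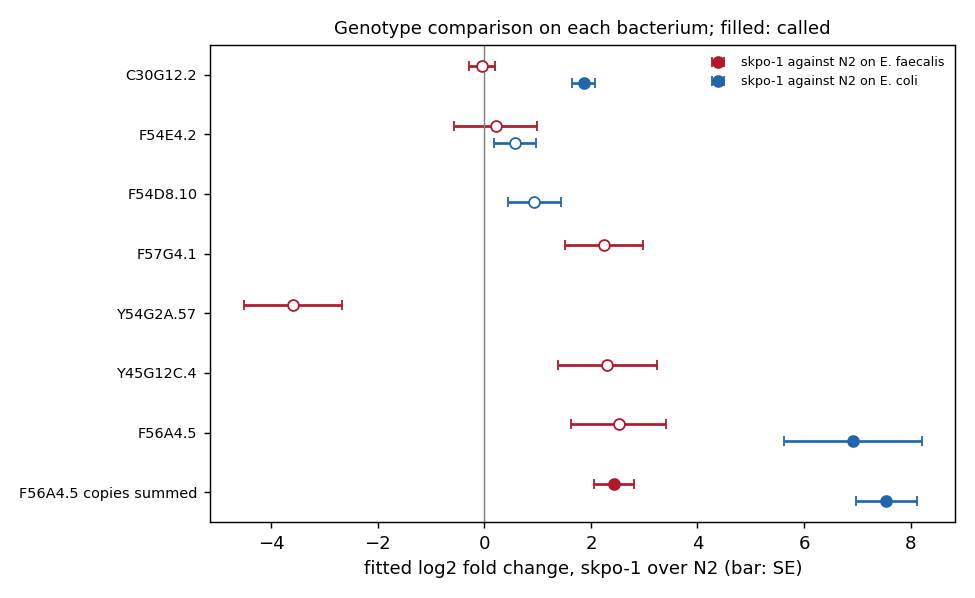
Fitted log2 fold change of *skpo-1* over N2 (x axis, bars are SE) for each gene (y axis) on *E. faecalis* and *E. coli*, with filled points for called genes. Comparisons with a group at 0 are left out. C30G12.2, F56A4.5 and the summed copies were called on *E. coli* at 1.86, 6.92 and 7.55, and on *E. faecalis* only the summed copies were called, at 2.43.

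The genes most alike to each were found by Pearson's *r* of log2 CPM over the 14 libraries among 15678 other genes. From 2 genes (for Y45G12C.4) to 243 (for F54E4.2) had *r* above 0.9, and 3 are named for each. The top 3 by Spearman's rank correlation shared 1 gene with these for F57G4.1 and 0 for each other gene. These correlations are a description, since all libraries share the difference between bacteria. The same libraries chose the genes named, so a like order of libraries was part of the choice. Y54G2A.57 was most like W02D7.11 (*r* = 0.967), *pals-37* of the *pals* family (0.945) and the MAPKAP kinase gene *mak-2* (0.944). In N2 on *E. faecalis*, *pals-37* had 0.618, 4.94 and 11.5 CPM and W02D7.11 had 0.177, 1.07 and 2.82 CPM, in the same order of libraries as Y54G2A.57. F57G4.1 was most like C02D5.4 (0.975), the chitinase-like gene *chil-9* (0.974) and the peroxisomal transporter gene *pmp-4* (0.969). In N2 on *E. faecalis*, *chil-9* had 3.62, 0.549 and 0.190 CPM, the order of libraries seen for F57G4.1.

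F56A4.5 was most like *phat-1* (*r* = 0.953), the collagen gene *col-115* (0.952) and K01D12.5 (0.934). On *E. coli* their log2 fold changes of *skpo-1* over N2 were 2.24 for *phat-1* (SE 0.634), 2.69 for *col-115* (SE 0.506) and 2.98 for K01D12.5 (SE 0.523). F56A4.5 was higher in *skpo-1* there too, and likeness to it chose these genes. Their direction was thus part of the choice, and no *P* is given for them. In *skpo-1* on *E. coli*, *col-115* had 0.715, 2.39 and 4.47 CPM, the same order of libraries as F56A4.5. These libraries were among those that chose *col-115*, so nothing is read from this order about the 2 copies. Y45G12C.4 was most like the neuropeptide receptor gene *npr-26* (0.937), the metallothionein gene *mtl-1* (0.902) and *idpb-2* (0.888). The copies correlated with each other at 0.660. This value and both lists include the *skpo-1* libraries 1 and 3 on *E. coli*, with 0 and 100% of the pair's counts on F56A4.5. How far the division of reads sets them was not tested, and genes most alike to the sum were not sought.

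C30G12.2 was most like *hach-1* of the propionate shunt (*r* = 0.969), C09B8.4 (0.968) and the fatty acid desaturase gene *fat-7* (0.968), and F54E4.2 was most like the same 3 genes (*fat-7* 0.984, *hach-1* 0.984, C09B8.4 0.982). These 3 head a long list, with *r* above 0.9 for 109 genes with C30G12.2 and 243 genes with F54E4.2. C30G12.2 and F54E4.2 themselves had *r* = 0.970. On *E. coli* the 3 genes did not show a called genotype difference, with log2 fold changes of 0.13 for *hach-1* (SE 0.128, adjusted *P* = 0.801), 0.20 for C09B8.4 (SE 0.246, adjusted *P* = 0.849) and 0.36 for *fat-7* (SE 0.177, adjusted *P* = 0.551, edgeR). The log2 fold change of C30G12.2 on *E. coli* was 1.86, and its difference from those of the 3 genes was not tested. F54D8.10 was most like *fbxa-72* of the F-box A family (0.958), *nhr-74* (0.955) and the collagen gene *col-43* (0.947).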

How the data were processed

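Expected counts of 14 libraries were used. The authors deposited these expected counts per gene, rounded to whole numbers, from paired reads that went through Trimmomatic 0.36 and then salmon 1.2.1 with the WBcel235 transcriptome. A second table deposited by the authors holds a signal, the counts normalized with DESeq2 1.26.0, and served only to look at the same ratios on that scale. Symbols were found for 19793 of 21982 identifiers, and coordinates are from Ensembl.

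Genes were filtered with filterByExpr (minimum count 10, minimum total 15), scaled with TMM and tested with edgeR 4.0.16's quasi-likelihood test in 1 fit of all libraries, with Benjamini-Hochberg adjustment over 15685 genes (R 4.3.3). Fitted fold changes used edgeR's default prior count, and log2 CPM a prior count of 2. Libraries held 15174830 to 36682565 counts, and the spread between replicates set the precision (common biological coefficient of variation 0.293). The fit was tested on simulated data, in which no group was set to 0 counts and no reads were divided between copies. That test thus does not cover such genes. Genes were chosen, and lists fixed, with earlier results of these data known. Named genes were the members, the 3 genes most alike to each and the nearest protein-coding genes. *clec*, *fmo*, *grd*, *oac* and *cyp* genes named beside the ranks were named for their place. Alternatives were other scaling, no filter, DESeq2 1.42.0, a replicate block, only the compared groups, and each library left out. Summed copies, a prior count of 2 in fitted fold changes and leaving out both libraries that stood apart were added after seeing the data. Protein relatives and promoters were not analysed here.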

Additional observations from a re-analysis of the deposited data

Results flagged for a closer look

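Among 8 rows with 2 groups of 4 libraries each, the summed copies included, 2 libraries lay far from the others of their group by Dixon's test. F56A4.5 had 14.7 CPM in library 1 of *skpo-1* on *E. faecalis*, where the other 3 had 32.7 to 35.8 CPM (gap over range 0.855). F54E4.2 had 1.78 CPM in library 3 of N2 on *E. coli*, where the others had 2.17 to 2.21 CPM (gap over range 0.905). Chance flags about 1 in 20 groups.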

How the results depend on the processing

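Between the genotypes on *E. coli* 101 genes were called. They were 316 with DESeq2's Wald test, 50 with a replicate block, 19 when only the compared groups were fitted, 66 without both libraries that stood apart and 26 to 148 without single libraries. Of the 7 genes described, 3 were called, and 1 with the replicate block, with only the compared groups and without both libraries that stood apart, and 1 to 2 without single libraries. On *E. faecalis* 17 genes were called, against 106 with DESeq2's Wald test, 11 with the replicate block, 10 with only the compared groups and 10 to 157 without single libraries, and of the 7 genes 0 to 2 were called without single libraries, 2 of them without N2 library 1 on *E. faecalis*. For the response of *skpo-1* 1849 genes were called, and 774 to 2368 without single libraries. Calls in the response of N2 were 3651 (2456 to 4409 without single libraries), and of the 7 genes 6 to 7 were called in N2 and 4 to 5 in *skpo-1* without single libraries. Nothing is read from these counts of the 7 genes in the responses, which chose them.

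The log2 fold change of C30G12.2 on *E. faecalis* (-0.05) was -0.26 to 0.10 without single libraries, with 0.10 without *skpo-1* library 2, 0.0011 without *skpo-1* library 4 and 0.08 without N2 library 2, and that of F54E4.2 (0.22) was -0.15 to 0.82, with -0.10 without *skpo-1* library 3 and -0.15 without N2 library 3. The cause was not tested. Replicate numbers were not taken as a pairing, since 9 of 19 same-numbered pairs had a residual correlation above 0.1 (-0.527 to 0.245). All 3 pairs of *skpo-1* on *E. coli* with N2 on *E. faecalis* were above it (0.176, 0.245 and 0.213), groups that were not compared by a test, and no other combination of groups was above it throughout. Low counts limit F54D8.10, F57G4.1 and F54E4.2.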

Other observations

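The count table gave 23 symbols to more than 1 identifier, 47 identifiers in all. F56A4.5 was 1 of these symbols. Its share of the pair's counts in *skpo-1* on *E. coli* was 0, 78.5 and 100%, and whether these shares come from the division of reads or from the copies themselves was not tested.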
